A study of Mus musculus with 8 samples.

Results

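The comparison set Foxp3-KO preTreg against WT Treg, 2 arrays each, or 4 of the 8 one-colour microarrays of the series, chosen by their sample titles. Foxp3-KO preTreg were CD4 single-positive thymocytes of mice labelled Foxp3-KO, gated on high CD25 and on expression of a reporter of Foxp3. WT Treg were CD4 single-positive thymocytes of wild-type mice that had Foxp3. All groups were lysed fresh from the thymus without culture, and the 2 replicates of a group were biological replicates. The other 4 arrays, of Nr4a-TKO preTreg and WT Tconv, entered the estimate of the spread and are shown where they place a level. The deleted part of Foxp3, the build of the reporter, the age and sex of the mice and any pooling are not stated in the sources used here. No WT precursor was measured, so genotype, stage and sort gate changed together and cannot be told apart.

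Foxp3 is the forkhead transcription factor that defines regulatory T cells, the CD4 T cells that restrain immune responses. In the thymus, strong T cell receptor and costimulatory signals first produce a CD25-high precursor, and IL-2 acting through STAT5 then helps to switch on Foxp3. Part of the regulatory gene programme is laid down before or beside Foxp3, and Foxp3 itself reinforces part of it and restrains effector cytokine genes.

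Levels are log2 signal relative to the 75th percentile of the array, which is 0, and each difference is Foxp3-KO preTreg minus WT Treg ± SE from limma. Of 21150 genes, 12539 were well above background on both arrays of at least 1 of these groups and were tested. At an adjusted p threshold of 0.05, 1008 genes (8.04%) were called, 514 higher (4.1%) and 494 lower (3.94%) in Foxp3-KO preTreg. Of these, 223 were at least 2-fold higher and 186 at least 2-fold lower. The median difference of all tested genes was -0.01. The SE borrowed the spread of all 4 groups: a fit of these 2 groups alone called 19 genes, and leaving out WT Treg replicate 1 or replicate 2 left 369 or 211 calls, against 1534 or 1088 without Foxp3-KO preTreg replicate 1 or replicate 2. The root mean square SD was 0.40 in Foxp3-KO preTreg, 0.25 in WT Treg, 0.25 in Nr4a-TKO preTreg and 0.15 in WT Tconv. The shared spread was thus below that of Foxp3-KO preTreg, so adjusted p values can be too small. A fit with weights by group called 438 genes. It kept 6 of 13 Treg core, 2 of 6 costimulatory, 8 of 14 replication and 21 of 23 mitotic calls. The fit of these 2 groups alone called 0 genes in each of these lists. With 2 arrays against 2 an exact permutation test of a single gene cannot go below p = 0.333.

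The Foxp3-KO preTreg arrays differed from each other more than the WT Treg arrays did. They correlated at r = 0.979, against 0.992 for WT Treg, across genes that are not independent of each other, and 719 genes differed over 2-fold between them, against 335 between the WT Treg arrays. On principal components of the 4 arrays, the first (62.3% of the variance) separated the groups and the second (28.9%) separated Foxp3-KO preTreg replicate 1, at 30.8, from replicate 2, at -32.2. The 2 arrays lay on opposite sides of the WT Treg mean for 30.6% of the tested genes. By at least 1 log2 unit on each side, 37 genes were above it in replicate 1 and below it in replicate 2, and 3 genes the reverse. Replicate 1 had 671 genes over 2-fold above and 310 over 2-fold below the WT Treg mean, and replicate 2 had 515 above and 610 below. Both arrays are therefore given separately throughout.

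**Figure D1:**
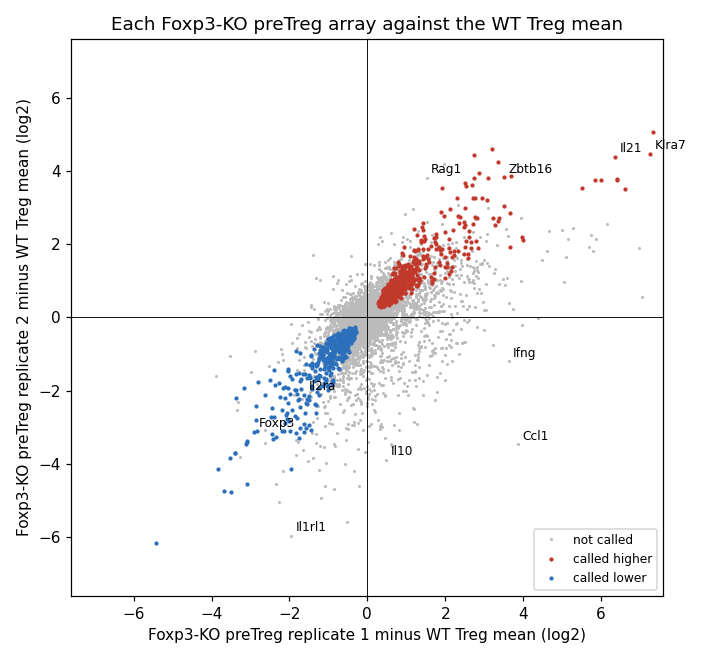
Each point is 1 of the 12539 tested genes, with its log2 signal minus the WT Treg mean in Foxp3-KO preTreg replicate 1 on the x axis and replicate 2 on the y axis. Genes called higher (514, red) and lower (494, blue) lie in the quadrants where both arrays moved the same way, while uncalled genes such as Ifng and Ccl1 lie where replicate 1 was above and replicate 2 below.

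Foxp3 was 8.09-fold lower in Foxp3-KO preTreg, and it was still well above background there. Its log2 signal was 1.79 and 1.58 in Foxp3-KO preTreg, against 4.84 and 4.56 in WT Treg (difference -3.02 ± 0.22, adjusted p = 0.00463), and -3.57 and -3.95 in WT Tconv. The probe may lie outside the deleted part, so this does not check the genotype, and the gate selects on this locus. Flicr, a long non-coding RNA next to Foxp3, was at -1.99 and -2.24 in Foxp3-KO preTreg, against 0.39 and 0.55 in WT Treg (-2.58 ± 0.46, adjusted p = 0.0298). The groups did not overlap for either gene. Foxp3 was called under all 17 alternative settings and Flicr under 10 of 17. In bulk samples such as these, fewer cells with a transcript and less of it per cell cannot be told apart.

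Both receptor genes named in the sort gates of the precursor groups were lower. Il2ra, the CD25 chain of the IL-2 receptor, was at 4.06 and 3.56 in Foxp3-KO preTreg, against 5.73 and 5.64 in WT Treg (-1.87 ± 0.22, adjusted p = 0.0107), and at -1.74 and -1.95 in WT Tconv. CD25 was thus 3.66-fold lower at the RNA level than in WT Treg, in cells gated as CD25-high. Tnfrsf18, which encodes the TNF receptor GITR, was at 6.39 and 6.22 in Foxp3-KO preTreg, against 7.0 and 6.96 in WT Treg (-0.68 ± 0.10, adjusted p = 0.0209). Cd4 (0.29 ± 0.09, adjusted p = 0.123) and the nuclear receptor gene Nr4a3 (-0.95 ± 0.45, adjusted p = 0.243) were not called.

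Of the regulatory T cell core genes, receptors, a cytokine subunit and regulators were called lower in Foxp3-KO preTreg. Of 45 listed genes 44 were tested: 12 were lower, 1 was higher and 31 were not called, and the median difference was -1.04. Of all tested genes 3.94% were called lower and 4.1% higher. The median was -0.53 for Foxp3-KO preTreg replicate 1 and -1.64 for replicate 2, and the groups did not overlap downwards for 29 of 44 genes, against 28.6% of all tested genes. Relative to the same WT Treg arrays, the median of the list was 0.30 in Nr4a-TKO preTreg and -3.66 in WT Tconv, and both WT Treg arrays lay above the other 6 arrays for 16 genes, against 9.08% of all tested genes. The count of genes called lower was 29 without Foxp3-KO preTreg replicate 1, 11 without replicate 2, 4 without WT Treg replicate 1 and 2 without WT Treg replicate 2.

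Among the secreted and surface products, Ebi3, a subunit of cytokines of the IL-12 family, was at 1.29 and -0.25 in Foxp3-KO preTreg, against 3.02 and 3.06 in WT Treg (-2.52 ± 0.46, adjusted p = 0.0323). Nrp1, a semaphorin receptor used as a marker of thymic regulatory T cells, was at -0.87 and -2.33, against 0.61 and 0.62 in WT Treg (-2.22 ± 0.47, adjusted p = 0.0457). Gpr83, an orphan-type receptor of regulatory T cells, was at -2.54 and -2.31 in Foxp3-KO preTreg, against -0.71 and -0.03 in WT Treg (-2.05 ± 0.22, adjusted p = 0.00873). Gpr83 was also higher in WT Tconv, at -1.43 and -1.42, than in Foxp3-KO preTreg. Ctla4, the inhibitory receptor for CD80 and CD86, was at 0.97 and 0.24 in Foxp3-KO preTreg, against 2.08 and 2.44 in WT Treg (-1.66 ± 0.32, adjusted p = 0.0371), and at -3.32 and -3.85 in WT Tconv. Izumo1r, the folate receptor 4 of regulatory T cells, fell by 0.99 ± 0.09 (adjusted p = 0.00596). The transcription factors and regulators called lower were Plagl1 (-2.38), Hopx (-1.50) and the MAP kinase phosphatase Dusp4 (-1.29), and the surface molecules Cd83 (-1.42) and Tnfrsf4 (-1.01) were lower too.

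The other core members split by how well the Foxp3-KO preTreg arrays matched. Ikzf2, which encodes the Treg transcription factor Helios, was at 4.48 and 4.57 in Foxp3-KO preTreg, against 4.88 and 4.78 in WT Treg (-0.30 ± 0.15, adjusted p = 0.253), and at -0.41 and -0.62 in WT Tconv. Ikzf4, its family member Eos, was at 5.03 and 5.17 in Foxp3-KO preTreg, against 5.83 and 5.74 in WT Treg (-0.69 ± 0.16, adjusted p = 0.0616). Lrrc32, which encodes GARP, the docking receptor for latent TGF-beta, was at 4.30 and 4.07, against 6.24 and 6.15 in WT Treg (-2.01 ± 0.47, adjusted p = 0.0617). These 3 genes were close between the Foxp3-KO preTreg arrays and below both WT Treg arrays, without passing the test. Il1rl1, the IL-33 receptor, was at 0.44 and -3.57 in Foxp3-KO preTreg, against 2.39 and 2.40 in WT Treg (-3.96 ± 1.18, adjusted p = 0.102). Klrg1 was at -0.51 and -4.24 against 0.75 and 0.63, and Tigit, an inhibitory receptor, was at -0.90 and -4.32 against -0.40 and -0.25 in WT Treg. Il10 was at -1.91 and -6.27 in Foxp3-KO preTreg, against -2.75 and -2.02 in WT Treg. Klrg1, Tigit and Il10 were well above background on 1 of the 2 Foxp3-KO preTreg arrays. For these effector-type genes replicate 2 was far below WT Treg, and replicate 1 lay nearer to it or above it. Prr5l, a component linked to mTOR complex signalling, was the member called higher (4.11 and 3.96, against 3.10 and 2.91 in WT Treg; 1.03 ± 0.21, adjusted p = 0.0438), and it was -2.58 and -3.08 in WT Tconv.

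**Figure D2:**
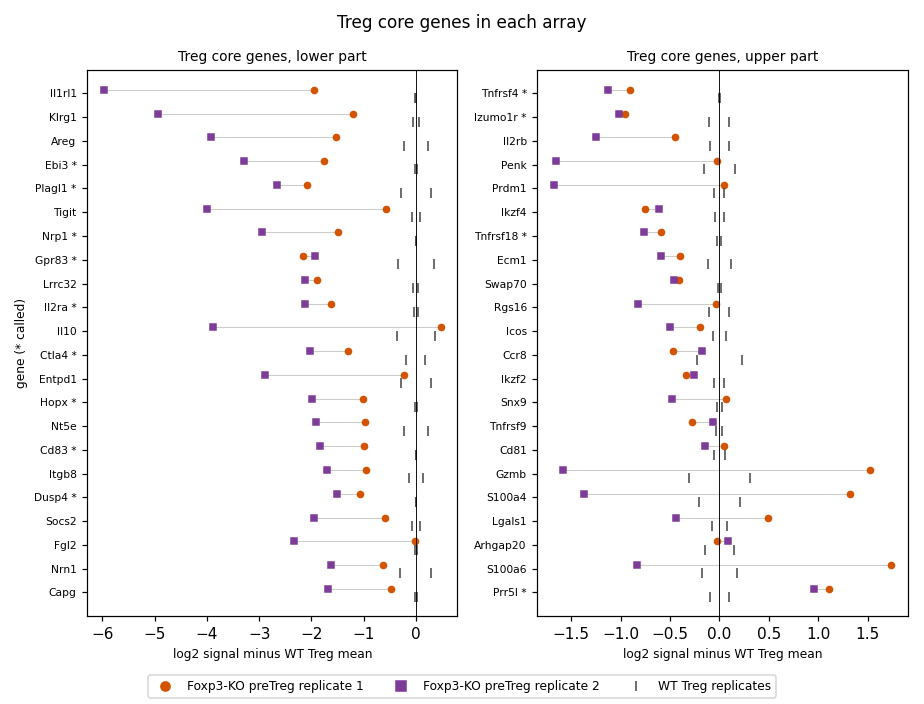
Log2 signal minus the WT Treg mean (x axis) for the 44 tested core genes (y axis, sorted by their difference, in 2 panels with separate scales), with orange circles and purple squares for Foxp3-KO preTreg replicates 1 and 2, grey ticks for the WT Treg replicates and asterisks on called genes. The called genes have both Foxp3-KO preTreg arrays clear of the WT Treg ticks, whereas Tigit, Il10 and Gzmb have replicate 2 far to the left and replicate 1 near or beyond 0.

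A minority of the costimulatory and IL-2 pathway genes, whose signals promote Treg differentiation, were lower. Of 20 tested costimulatory receptors and ligands 6 were lower and 0 higher (median -0.33), against 3.94% lower and 4.1% higher of all tested genes. Tnfrsf4, the OX40 receptor, was at 6.80 and 6.57 in Foxp3-KO preTreg, against 7.69 and 7.71 in WT Treg (-1.01 ± 0.11, adjusted p = 0.009). Tnfrsf25, the receptor DR3, was at 5.71 and 5.49, against 6.42 and 6.45 in WT Treg (-0.84 ± 0.09, adjusted p = 0.00937). The other called members were Cd86 (-1.03), Tnfrsf14 (-0.84), Tnfrsf18 (-0.68) and Slamf1 (-0.53). Their count was 7 without Foxp3-KO preTreg replicate 1, 5 without replicate 2, 2 without WT Treg replicate 1 and 0 without WT Treg replicate 2.

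Of 25 tested IL-2, STAT5 and SOCS genes 3 were lower and 0 higher (median -0.18), against 3.94% and 4.1% of all tested genes. Besides Il2ra these were Cish, a STAT5-induced inhibitor, at 4.24 and 4.03 in Foxp3-KO preTreg, against 5.16 and 5.31 in WT Treg (-1.1 ± 0.10, adjusted p = 0.00578), and the kinase gene Jak3 (-0.57 ± 0.09, adjusted p = 0.0206). Il2 itself was at -0.14 in Foxp3-KO preTreg replicate 1 and -3.64 in replicate 2, against -3.71 and -4.05 in WT Treg, and was not called (adjusted p = 0.285). It was well above background on 1 of the 2 WT Treg arrays. Among NF-kB genes 2 of 27 were lower, against 3.94% of all tested genes, and 0 were higher. The 2 were the adaptor Traf1 (-0.82) and the feedback inhibitor Tnip1 (-0.44). Of the IL-2 list 9 genes were lower without Foxp3-KO preTreg replicate 1, 3 without replicate 2 and 1 without either WT Treg array. In the early T cell receptor response list, Dusp4, Tagap and Irf4 were lower and Dusp6 was higher among 33 tested genes (median -0.09), and by limma 0 of 35 proximal T cell receptor signalling genes were called (median 0.04), with 7 at an unadjusted p under 0.05.

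TGF-beta genes, which assist Foxp3 induction, had 3 lower and 1 higher of 22 tested (median -0.15), against 3.94% lower and 4.1% higher of all tested genes. The counts lower and higher were 1 and 0 without WT Treg replicate 1, 0 and 0 without WT Treg replicate 2, 3 and 1 without Foxp3-KO preTreg replicate 1 and 2 and 2 without replicate 2. Tgfbr1, the type I receptor, was at 2.21 and 2.29 in Foxp3-KO preTreg, against 3.13 and 2.98 in WT Treg (-0.81 ± 0.13, adjusted p = 0.0208). Tgfbr3, the betaglycan co-receptor, was at 1.93 and 2.47 in Foxp3-KO preTreg, against 0.75 and 0.49 in WT Treg (1.58 ± 0.23, adjusted p = 0.0178). Tgif1 (-0.62) and Smad7 (-0.39) were the other called members, so the receptors moved in opposite directions. The purine receptors P2rx7 (-1.12 ± 0.14, adjusted p = 0.0131) and P2ry10 (-1.09 ± 0.14, adjusted p = 0.0125) were lower among 14 adenosine and purine genes.

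Genes of mitosis were higher by close to 2-fold in both Foxp3-KO preTreg arrays. Of 30 listed G2/M and mitotic genes 27 were tested, and 23 were higher and 0 lower, against 4.1% and 3.94% of all tested genes. The median was 1.05 (0.88 for Foxp3-KO preTreg replicate 1 and 1.17 for replicate 2). The arrays did not overlap for any of the 27, against 25.3% of all tested genes that were higher without overlap. Ccnb1, the mitotic cyclin B1, was at 1.47 and 1.48 in Foxp3-KO preTreg, against 0.35 and 0.29 in WT Treg (1.15 ± 0.06, adjusted p = 0.00191). Aurka, the centrosomal kinase Aurora A, was at 1.95 and 2.10, against 0.86 and 0.91 in WT Treg (1.14 ± 0.08, adjusted p = 0.00344). Mki67, the proliferation antigen Ki-67, was at 4.38 and 4.58, against 3.55 and 3.57 in WT Treg (0.92 ± 0.10, adjusted p = 0.00755). In each the replicates of a group lay close together and the groups were far apart. Cdk1, Ccnb2, Kif11, Birc5, Ccna2 and Top2a rose by 1.23, 1.03, 1.07, 1.11, 1.22 and 1.13, although 1 of the 2 Cdk1 probes above background had the opposite sign. Cdc25c (adjusted p = 0.061), well above background on 1 of the 2 WT Treg arrays, and Hmmr (0.30 ± 0.10, adjusted p = 0.129) were not called.

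The levels of the other sorted groups place this difference. Relative to the same WT Treg arrays, the median of the 27 mitotic genes was 1.29 in Nr4a-TKO preTreg and 1.23 in WT Tconv, and both WT Treg arrays lay below the other 6 arrays for 27 of 27 genes, against 11.6% of all tested genes. Ccnb1 was at 1.86 and 1.83 in Nr4a-TKO preTreg and at 1.54 and 1.56 in WT Tconv. WT Treg thus had the lowest level of these transcripts in the series, and the other 3 groups lay close together. In the DNA replication and G1/S list 14 of 29 tested genes were higher and 0 lower, against 4.1% and 3.94% of all tested genes. Both WT Treg arrays were the lowest for 25. Relative to WT Treg, the median of this list was 0.36 in Foxp3-KO preTreg, 0.85 in Nr4a-TKO preTreg and 0.89 in WT Tconv. For these genes Foxp3-KO preTreg thus lay nearer to WT Treg than the other groups did. Rrm2, the ribonucleotide reductase subunit made in S phase, was at 3.72 and 3.80 in Foxp3-KO preTreg, against 2.47 and 2.52 in WT Treg (1.27 ± 0.08, adjusted p = 0.00263). Cdc6, Uhrf1, Mcm10 and Pcna rose by 0.84, 0.83, 0.81 and 0.56. The mitotic count was 23 and 21 without Foxp3-KO preTreg replicate 1 and replicate 2, and 13 and 11 without WT Treg replicate 1 and replicate 2, while the replication count was 11, 12, 4 and 4 in that order.

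Because these genes moved together, their promoters were read from RefSeq (build GRCm38.p6) for 250 bases before to 50 after the gene start. Genes of this class are known to be timed through a CHR element and CCAAT boxes, which are bound by the MuvB complexes and by NF-Y. The CHR letters TTTGAA and the box CCAAT were searched on both strands, and no match in the windows shown overlaps another. Of 23 tested mitotic genes with a window, 16 (69.6%) held TTTGAA, 17 (73.9%) held CCAAT and 14 (60.9%) held both. Of 10064 tested genes with a window the shares were 14.9%, 42.9% and 6.18%, and of all 27025 genes with a window they were 20.2%, 41.1% and 7.97%. The matches are a description of the letters and not of binding, and these motifs were chosen after the values were seen. The windows of 4 of the genes named above, picked because they held both motifs, are shown in the direction of transcription. Matches are in capitals: TTTGAA or its reverse TTCAAA, and CCAAT or its reverse ATTGG.
Aurka (chr2:172370521-172370820, minus strand): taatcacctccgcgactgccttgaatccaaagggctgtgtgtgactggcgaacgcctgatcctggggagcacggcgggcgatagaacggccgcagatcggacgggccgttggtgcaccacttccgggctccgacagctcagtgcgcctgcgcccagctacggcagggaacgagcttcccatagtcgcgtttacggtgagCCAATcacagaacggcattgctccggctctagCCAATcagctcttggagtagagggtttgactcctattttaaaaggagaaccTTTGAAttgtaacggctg
Cdk1 (chr10:69352863-69353162, minus strand): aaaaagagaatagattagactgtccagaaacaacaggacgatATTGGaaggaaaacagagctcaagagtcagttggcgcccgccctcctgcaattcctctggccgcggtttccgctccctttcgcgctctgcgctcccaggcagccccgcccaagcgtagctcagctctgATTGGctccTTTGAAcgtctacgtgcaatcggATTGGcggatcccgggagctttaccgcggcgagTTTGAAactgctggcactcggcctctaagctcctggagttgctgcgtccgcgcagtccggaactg
Ccnb2 (chr9:70421505-70421804, minus strand): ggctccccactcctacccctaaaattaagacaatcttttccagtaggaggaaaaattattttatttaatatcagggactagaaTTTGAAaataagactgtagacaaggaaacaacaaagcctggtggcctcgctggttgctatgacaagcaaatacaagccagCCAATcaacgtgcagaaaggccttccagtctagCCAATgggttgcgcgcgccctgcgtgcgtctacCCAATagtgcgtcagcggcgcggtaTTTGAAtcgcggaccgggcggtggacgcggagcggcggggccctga
Kif11 (chr19:37376132-37376431, plus strand): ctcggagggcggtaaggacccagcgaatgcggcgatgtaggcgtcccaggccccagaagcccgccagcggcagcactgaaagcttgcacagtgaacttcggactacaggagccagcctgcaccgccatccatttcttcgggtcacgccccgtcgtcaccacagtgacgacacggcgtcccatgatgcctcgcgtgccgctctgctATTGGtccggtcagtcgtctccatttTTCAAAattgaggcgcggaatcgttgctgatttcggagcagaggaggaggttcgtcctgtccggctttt
Kif11 had 1 copy of each motif, Aurka 1 CHR and 2 CCAAT matches, and Cdk1 and Ccnb2 each 2 CHR and 3 CCAAT matches. In these 4 windows, picked for holding both motifs, the last CHR match follows the last CCAAT match. A forkhead core, TGTTTAC, was also searched on both strands in the promoters of the genes named for the largest differences, and 0 of 9 higher and 0 of 12 lower genes with a window held it. Among genes with a window, 3.92% of those called higher, 2.9% of those called lower and 3.26% of those tested held it.

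In the glycolysis and hypoxia list 6 of 25 tested genes were higher and 0 lower (median 0.27), against 4.1% and 3.94% of all tested genes. The higher genes included the glycolytic enzymes Pgk1 (0.53 ± 0.08, adjusted p = 0.0168), Eno1 (0.47), Tpi1 (0.50) and Pgam1 (0.37). Vegfa, the hypoxia-induced growth factor, was at -2.49 and -1.35 in Foxp3-KO preTreg, against -3.92 and -3.91 in WT Treg (adjusted p = 0.0373), where 1 of the 2 arrays was well above background. The count was 6 and 7 without Foxp3-KO preTreg replicate 1 and replicate 2 and 0 without either WT Treg array, and 0 with weights by group. By limma 0 of 25 cholesterol and fatty acid synthesis genes and 0 of 21 ER stress genes were called, with 7 and 6 at an unadjusted p under 0.05.

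Some genes of immature thymocytes were higher. Of 26 tested genes 4 were called higher and 0 lower, against 4.1% and 3.94% of all tested genes. The median was 0.64 (0.60 for Foxp3-KO preTreg replicate 1 and 0.86 for replicate 2). Without overlap 19 were higher, against 25.3% of all tested genes. Cd24a, the heat-stable antigen lost on maturation, was at 2.57 and 2.89 in Foxp3-KO preTreg, against 0.93 and 0.94 in WT Treg (1.80 ± 0.19, adjusted p = 0.00753), and at 1.86 and 1.90 in WT Tconv. Dntt, the terminal transferase of antigen receptor rearrangement, was at 3.29 and 3.74, against 1.88 and 1.29 in WT Treg (1.93 ± 0.36, adjusted p = 0.0341). Cd8a was at -0.94 and -0.18, against -2.01 and -2.79 in WT Treg (1.84 ± 0.35, adjusted p = 0.0356). Cd24a was higher than in every other group, whereas Dntt was below WT Tconv, at 4.11 and 4.12. Ly6d (1.68 ± 0.25, adjusted p = 0.0179) was the fourth called member. Rag1, a recombinase gene, was at -1.12 and 1.18 in Foxp3-KO preTreg, against -1.87 and -3.41 in WT Treg, and was not called (2.67 ± 0.85, adjusted p = 0.118). Rag1 was above WT Treg in both arrays, more so in replicate 2. Without WT Treg replicate 1 the count was 1, without WT Treg replicate 2 it was 0, and without Foxp3-KO preTreg replicate 1 and replicate 2 it was 8 and 3. The summed linear signal of the CD8 and double-positive markers was 31.0 and 37.7 in Foxp3-KO preTreg, against 23.1 and 19.0 in WT Treg, in units of the array's 75th percentile, and its part in this result was not tested.

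A few markers of mature, emigrating cells were lower in the same contrast. In the thymic exit and maturation list 4 of 24 tested genes were called lower and 1 higher (median -0.07), against 3.94% and 4.1% of all tested genes. Itgb7 (-0.50 ± 0.09, adjusted p = 0.0342), Klf2 (-0.40) and S1pr1 (-0.34) were among the lower genes, and Cd24a was the higher one. With weights by group 0 genes of the list were called lower. Itgb7 encodes a subunit of gut-homing integrins, S1pr1 the receptor that leads cells out of the thymus and Klf2 a factor that induces S1pr1. These 3 genes were 1.26- to 1.41-fold lower. S1pr1 was at 4.76 and 4.76 in Foxp3-KO preTreg, against 5.13 and 5.06 in WT Treg. It was lower still in WT Tconv (3.81 and 3.81) and Nr4a-TKO preTreg (3.01 and 3.02). Klf2 and Itgb7, by contrast, were lower in Foxp3-KO preTreg than in WT Tconv.

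Some markers of natural killer (NK) and innate-like T cells were higher, by very different amounts in the Foxp3-KO preTreg arrays. Of 18 tested markers 4 were called higher and 0 lower, against 4.1% and 3.94% of all tested genes. The median of the 18 was 3.52, with 4.27 for Foxp3-KO preTreg replicate 1 and 1.78 for replicate 2. Zbtb16, the transcription factor PLZF of innate-like T cells, was the member in which the arrays matched: 0.07 and 0.39 in Foxp3-KO preTreg, against -3.11 and -3.75 in WT Treg (3.66 ± 0.23, adjusted p = 0.00263). It was at 2.20 and 2.12 in WT Tconv. Klrb1c, the NK1.1 antigen, was at 1.51 and -1.61 in Foxp3-KO preTreg, against -4.92 and -5.29 in WT Treg (adjusted p = 0.0329). That probe, and those of the Ly49 receptor genes Klra7, Klra4 and Klra9, were not well above background on either WT Treg array, so their folds are bounds, the mean of Foxp3-KO preTreg over the higher of each WT Treg array's own and its lowest detected signal. Klrb1c was at least 19.5-fold higher, Klra7 at least 30.9-fold (2.23 and -0.55 in Foxp3-KO preTreg; adjusted p = 0.0272), Klra4 at least 19.1-fold (adjusted p = 0.0314) and Klra9 at least 17.4-fold (adjusted p = 0.0209). Klra16, a further Ly49 gene, was at 3.06 and 0.82 in Foxp3-KO preTreg, against -2.42 and -3.43 in WT Treg (4.87 ± 0.72, adjusted p = 0.0186). Ly49 genes are near-identical paralogs whose probes can share signal, so they are not independent. Klrc1, Klrb1a and Klrd1 were not called and lay at 1.73 and -3.34, 1.87 and -1.91, and 2.49 and -0.34 in Foxp3-KO preTreg, against -6.33 and -4.14 (not well above background), -3.84 and -3.83, and -2.15 and -3.42 in WT Treg.

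The summed signal of the NK and innate-like markers was 177 in Foxp3-KO preTreg replicate 1 and 40.9 in replicate 2, against 33.1 and 26.7 in WT Treg. Relative to the same WT Treg arrays, the median of the 18 tested genes was 2.44 in Nr4a-TKO preTreg and 2.48 in WT Tconv, and both WT Treg arrays were the lowest of the 8 for 12 of them, against 11.6% of all tested genes. Of 21 markers on the array 13 were well above background on all 4 arrays. Without Foxp3-KO preTreg replicate 1 the list had 8 higher and 2 lower genes, without replicate 2 it had 16 higher, and without WT Treg replicate 1 and replicate 2 it had 2 and 1. T cell markers were at 1181 and 1288 in Foxp3-KO preTreg, against 1166 and 1172 in WT Treg, and by limma 0 of 10 were called, with 3 at an unadjusted p under 0.05. Cd3e was at 6.90 and 6.90 in Foxp3-KO preTreg, against 6.75 and 6.82 in WT Treg. The part of other cells in the NK result was not tested.

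**Figure D3:**
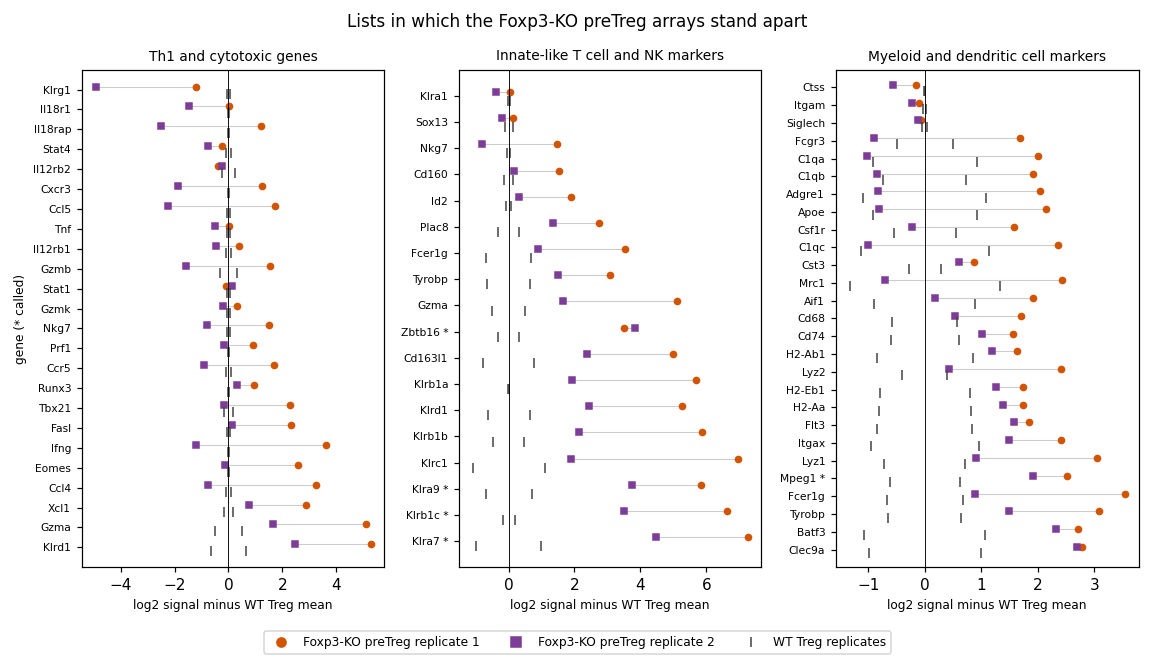
Log2 signal minus the WT Treg mean (x axis, separate scales) for the members (y axis) of 3 lists, with orange circles and purple squares for Foxp3-KO preTreg replicates 1 and 2, grey ticks for the WT Treg replicates and asterisks on called genes. In the Th1 and cytotoxic list the orange circles reach far right while most purple squares lie at or left of 0, in the NK list both arrays lie right of 0 for most genes with replicate 1 farther out, and the myeloid list shows wide WT Treg ticks.

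The Foxp3-KO preTreg arrays differed widely in Th1 and cytotoxic genes. By limma 0 of 24 tested genes were called, with 6 at an unadjusted p under 0.05, and the median was 1.37 for Foxp3-KO preTreg replicate 1 and -0.49 for replicate 2. Both arrays lay above both WT Treg arrays for 5 genes and below them for 3, against 25.3% and 28.6% of all tested genes. Ifng was at 2.61 and -2.21 in Foxp3-KO preTreg, against -1.01 and -1.02 in WT Treg. Tbx21, the Th1 transcription factor T-bet, was at 2.33 and -0.14, against -0.12 and 0.20 in WT Treg. Gzmb, a granzyme, was at 1.36 and -1.74, against -0.48 and 0.15 in WT Treg. Replicate 1 was above both WT Treg arrays and replicate 2 below both for all 3, narrowly so for Tbx21. Leaving out replicate 2 called 14 genes of the list higher, leaving out replicate 1 called 1 higher and 11 lower, and 0 were called without either WT Treg array. Of 13 tested chemokine ligands 1 was higher and 0 lower (median 1.74 for Foxp3-KO preTreg replicate 1 and 0.43 for replicate 2), and 6 were higher without overlap, against 25.3% of all tested genes, and 0 lower. The called gene was Ccl24, a chemokine for eosinophils, at -0.75 and -2.70 in Foxp3-KO preTreg and not well above background in WT Treg (at least 6.11-fold higher, adjusted p = 0.0336). Leaving out Foxp3-KO preTreg replicate 1 gave 0 higher and 3 lower, replicate 2 gave 6 higher, WT Treg replicate 1 gave 1 higher and WT Treg replicate 2 gave 0. The arrays lay on opposite sides for some others: Ccl4 was at 2.42 and -1.57 against -0.73 and -0.89, Ccl5 at 6.28 and 2.30 against 4.60 and 4.49, and Ccl1, well above background on 1 of the 2 Foxp3-KO preTreg arrays, at 2.40 and -4.92 against -1.38 and -1.53 in WT Treg.

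Of 19 tested genes that Foxp3 represses in mature T cells, 2 were higher and 0 lower (median 0.49). Of all tested genes 4.1% were called higher and 3.94% lower. Il21, the helper cytokine, was at 1.62 and -0.36 in Foxp3-KO preTreg, against -3.38 and -6.11 in WT Treg (adjusted p = 0.0335), and at 3.80 and 3.27 in Nr4a-TKO preTreg. Il21 was well above background on 1 of the 2 WT Treg arrays, so the size of its difference is not given. Pde3b, the cyclic nucleotide phosphodiesterase, was at 3.45 and 3.81, against 2.12 and 2.39 in WT Treg (1.37 ± 0.22, adjusted p = 0.0217). Both rose in each array, while Il4 (-0.42 and -1.37, against -2.58 and -2.03 in WT Treg; 1.41 ± 0.40, adjusted p = 0.0916) was not called. Ccr6, a chemokine receptor of the Th17 list, was at 4.01 and 3.0, against 5.56 and 5.65 in WT Treg (-2.10 ± 0.33, adjusted p = 0.0209). In that list Rora, Stat3 and Irf4 were lower too, as 4 of 12, against 3.94% of all tested genes. Of 15 genes of the Th2 list, the IL-25 receptor gene Il17rb was higher (1.17 ± 0.17, adjusted p = 0.0179) and Gata3 lower (-0.33). Il13 was called higher too (0.46, adjusted p = 0.0494), at -3.39 and -3.47, against -3.84 and -3.93 in WT Treg. The lowest detected signals of these arrays were close, at -3.90 and -4.21 in Foxp3-KO preTreg and -4.50 and -4.17 in WT Treg. Il13 was called under 3 of 17 alternative settings. Lair1, an inhibitory collagen receptor, was the member of the 22 co-inhibitory receptors called higher (1.15), and Ctla4 the one called lower.

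**Figure D4:**
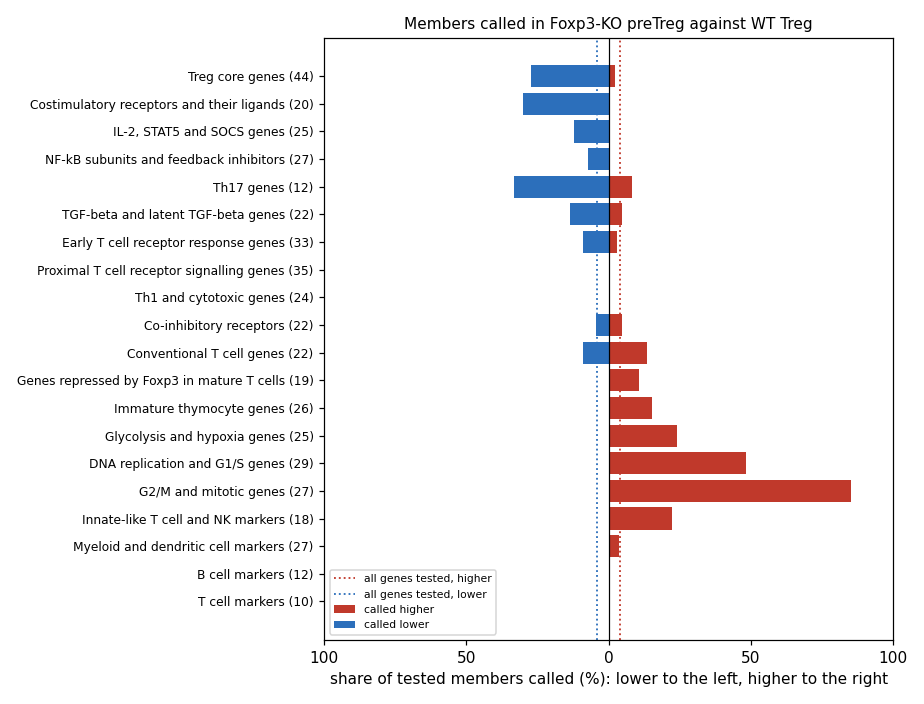
Share of the tested members of 20 lists (number tested in brackets) that were called higher (red bars, right) or lower (blue bars, left) in Foxp3-KO preTreg against WT Treg, in percent, with dotted lines at the shares among all tested genes, 4.1% higher and 3.94% lower. The mitotic list stands at 23 of 27 higher and the Treg core list at 12 of 44 lower, and the Th1 list has no called member.

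The largest called differences among genes above background on all 4 arrays were not all immune genes. Among the 15 highest, Klk1b5, Klk1b26 and Klk1, tissue kallikreins that are near-identical paralogs, had tight replicates. Klk1b5 was at 1.63 and 1.77 in Foxp3-KO preTreg, against -0.83 and -0.85 in WT Treg (2.54 ± 0.07, adjusted p = 0.000547). Klk1b26 was at 1.0 and 0.98, against -1.41 and -1.55 in WT Treg (2.47 ± 0.09, adjusted p = 0.000791), and Klk1 at 0.30 and 0.32, against -2.02 and -2.40 in WT Treg (2.51 ± 0.13, adjusted p = 0.00158). Klk1b5 was at -0.42 and -0.46 in Nr4a-TKO preTreg and -0.06 and -0.05 in WT Tconv, so both Foxp3-KO preTreg arrays lay above the other 6, as for 4% of all tested genes. Upb1, an enzyme of pyrimidine breakdown, was at 0.04 and -0.06, against -2.78 and -2.77 in WT Treg (2.76 ± 0.10, adjusted p = 0.000747). Cox6a2, a muscle-type cytochrome oxidase subunit, was at 1.22 and 1.2, against -1.62 and -1.47 in WT Treg (2.76 ± 0.16, adjusted p = 0.00226). Klk1b5, Klk1b26 and Upb1 were called under all 17 alternatives.

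The rest of the highest 15 held secreted and surface proteins. Slpi, a secreted protease inhibitor, was at 4.02 and 1.74 in Foxp3-KO preTreg, against -3.02 and -3.58 in WT Treg (6.18 ± 1.35, adjusted p = 0.0499), and it was at 4.69 and 0.75 in Nr4a-TKO preTreg. Syt13, a synaptotagmin, was at -0.43 and 0.44, against -3.70 and -3.88 in WT Treg (3.80 ± 0.39, adjusted p = 0.00753). Ccr10, a chemokine receptor for skin and mucosal ligands, was at -1.25 and -1.03, against -3.69 and -3.52 in WT Treg (2.46 ± 0.11, adjusted p = 0.00102), but at 1.86 and 1.91 in WT Tconv. The adhesion receptor genes Adgrg3 (2.55) and Adgrg5 (3.05), the neural adhesion gene Chl1 (3.10), the steroid dehydrogenase gene Akr1c18 (3.06) and the endoribonuclease gene Endou (2.55) were also among them. Adgrg3 and Chl1 were higher still in WT Tconv, at 3.42 and 3.31 and at 2.63 and 2.65. Among the 15, 14 stayed called without Foxp3-KO preTreg replicate 1, 12 without replicate 2, 11 without WT Treg replicate 1 and 8 without WT Treg replicate 2.

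The lowest 15 called genes were led by Il1r2, the decoy receptor that binds IL-1 without signalling, at 0.47 and -1.71 in Foxp3-KO preTreg, against 2.46 and 2.40 in WT Treg (-3.05 ± 0.65, adjusted p = 0.0468). Dgat2, an enzyme of triglyceride synthesis, was at 0.78 and 0.69, against 2.95 and 2.83 in WT Treg (-2.16 ± 0.13, adjusted p = 0.00228). She, an SH2-domain adaptor, was at -1.60 and -1.89, against 0.49 and 0.41 in WT Treg (-2.20 ± 0.20, adjusted p = 0.00578). Susd4, a complement regulator, was at -3.12 and -3.44, against -0.81 and -1.04 in WT Treg (-2.35 ± 0.20, adjusted p = 0.00558). Susd4 was near 0 in Nr4a-TKO preTreg (0.20 and -0.16) and WT Tconv (0.03 and -0.32), so both Foxp3-KO preTreg arrays lay below the other 6, as for 7.49% of all tested genes. Besides Foxp3, Flicr, Ebi3, Plagl1 and Nrp1, the others were Neb (-2.49), Lama5 (-2.34), Mtmr7 (-2.27), Rgs9 (-2.27), Gm16894 (-2.25) and Cavin1 (-2.21). Of the 15, 14 stayed called without Foxp3-KO preTreg replicate 1, 13 without replicate 2, 8 without WT Treg replicate 1 and 6 without WT Treg replicate 2. Both sides kept their direction under these 4 settings, which the selection of these genes had fixed in advance.

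Of the called genes, 56 higher and 49 lower had no probe well above background in the dimmer group, so their folds are bounds, and the 5 largest bounds among them on each side are named. Higher, besides Klra7, Klra4 and Klra9, were 2310065F04Rik (at least 9.63-fold higher, adjusted p = 0.00129) and the IL-17 receptor gene Il17re (at least 6.52-fold, adjusted p = 0.033). Lower in Foxp3-KO preTreg were Tlcd5 (at least 6.64-fold, adjusted p = 0.0107), the junctional scaffold gene Magi1 (at least 6.60-fold, adjusted p = 0.0108), the potassium channel gene Kcnj15 (at least 6.07-fold, adjusted p = 0.0125), the calcitonin gene Calca (at least 4.54-fold, adjusted p = 0.0152) and Car11 (at least 4.26-fold, adjusted p = 0.00578). Calca was at 3.97 and 3.63 in Nr4a-TKO preTreg and thus far above both groups compared here. Among PI3K and mTOR regulators, the phosphatase gene Phlpp1 was lower (-1.59 and -1.74, against 0.07 and 0.43 in WT Treg; -1.92 ± 0.18, adjusted p = 0.00578), and Sgk1 was higher (1.1 ± 0.16, adjusted p = 0.0175).

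**Figure D5:**
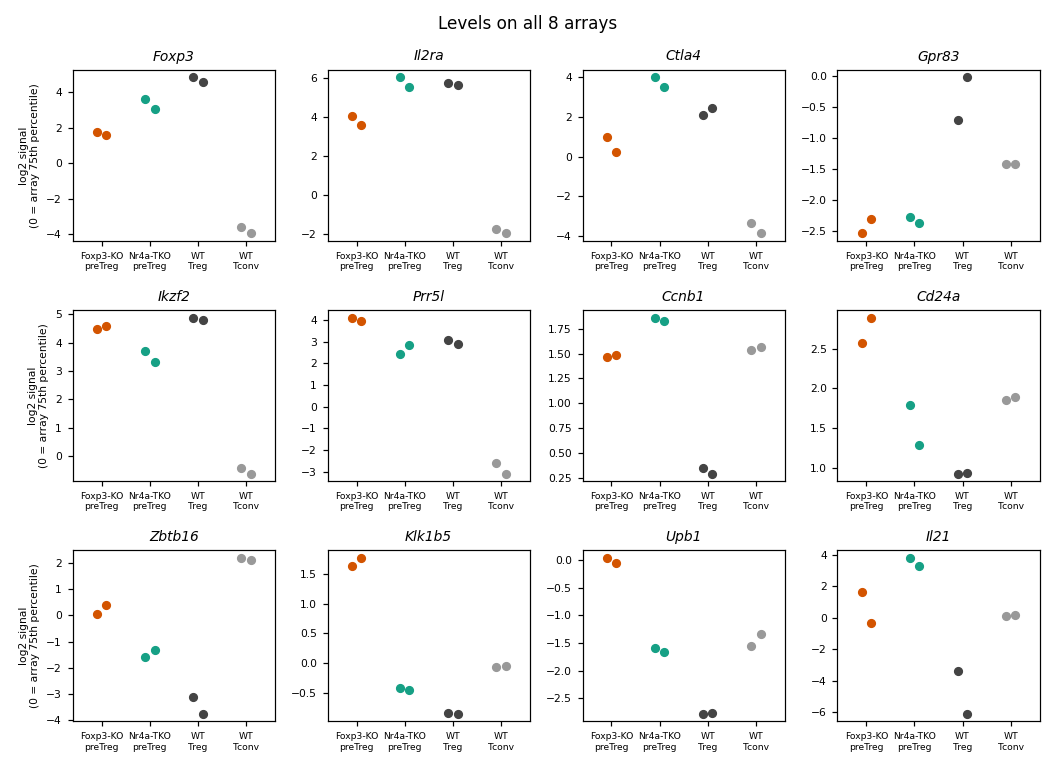
Log2 signal (y axis, 0 at the array's 75th percentile, separate scales) of 12 genes in Foxp3-KO preTreg, Nr4a-TKO preTreg, WT Treg and WT Tconv (x axis), 1 point per array. Foxp3 and Il2ra in Foxp3-KO preTreg lie between WT Treg and WT Tconv, Ccnb1 is low in WT Treg and not in the other 3 groups, and both Foxp3-KO preTreg arrays have the highest Klk1b5 and Upb1.

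Several further lists had medians near 0, from -0.07 for Foxp3 partner genes to 0.17 for DNA methylation and Polycomb genes. Of all tested genes 8.04% were called. Among 39 tested Foxp3 partner and cofactor genes, Tet2 (0.38) and Ikzf1 (0.66) were higher and Tet3 (-0.61), Stat3 (-0.45), Irf4 (-0.38) and Gata3 (-0.33) lower, with 1 of the 2 Ikzf1 probes above background of the opposite sign. Of 21 DNA methylation and Polycomb genes, Dnmt1 (0.60), Uhrf1 (0.83), Bmi1 (0.45) and Tet2 were higher, and Tet3 and Pcgf2 lower. Pcgf2 was not well above background on either Foxp3-KO preTreg array. With weights by group, 0 of the 6 partner and cofactor calls and 1 of the 6 methylation and Polycomb calls stayed. Dnmt1 and Uhrf1, which maintain methylation, are also replication-linked. Pro-apoptotic Bmf was higher (1.42 ± 0.31, adjusted p = 0.0499) and the TRAIL receptor gene Tnfrsf10b lower (-0.66), of 22. Of 28 interferon-stimulated genes 2 were higher, Ifi44 (1.41) and Gbp2 (0.79). Among 19 handling-stress genes 0 were called by limma, with 7 at an unadjusted p under 0.05.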

How the data were processed

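RNA of 4 sorted thymocyte populations, 2 samples each, was hybridised to 1-colour Agilent arrays of 1 slide, from 10 ng of RNA labelled with Cy3 per the labels. Per the file headers, the authors' scanner software (Agilent Feature Extraction 10.7.1.1, per the submitters' processing notes) wrote the processed intensity of each spot, background-subtracted and not normalized between arrays. A series matrix of linear signal, also deposited by the authors, served as an alternative. Here the log2 of the deposited intensity was taken, the array's 75th percentile subtracted and spots of a probe averaged. Control and outlier spots were left out. Between 47.7% and 52.1% of probes were well above background, and the number of arrays limits the precision. Of 55681 probes, 28020 had a gene symbol through their RefSeq accession, and 1776 accessions had no match. The brightest probe stood for a gene.

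A single limma model held all 4 groups (limma 3.58.1, R 4.3.3; residual df 4, prior df 1.82), with Benjamini-Hochberg adjustment over 12539 genes. Named genes are Foxp3 and gate genes, the 15 highest and 15 lowest called differences above background on all 4 arrays with both Foxp3-KO preTreg arrays at least 1 log2 unit away, the 5 largest bounds each way, leading members of the 43 lists with the members whose Foxp3-KO preTreg arrays differ most, and genes with the largest gap between those arrays. Others were chosen after their values were seen, to place a list. Members and lists were chosen with earlier results of these data known. Lists are described by counts and medians only. Some genes are not reported here. Tested on simulated data with 200 changed of 12539 genes, the fit recovered 32% of 1.5-fold changes, 78% of 2-fold ones, 92% of 4-fold ones and 100% of 8-fold ones, and called 10 unchanged genes. Alternatives were scaling, background correction, the matrix, filters, probe rules, a trend, the groups fitted, weights by group, a replicate block, a 2-fold minimum and leaving out each array. Figures used matplotlib 3.10.9.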

Additional observations from a re-analysis of the deposited data

How the results depend on the processing

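The count of 1008 called genes (514 higher, 494 lower) stayed within 1.5 times under quantile normalization (1079), median scaling (804), normexp (1135), the deposited matrix (1019), a filter for signal above background on the 4 arrays compared (921), averaging of a gene's probes (863) and an intensity trend (1355). With every probe on its own, 1393 of 26805 probes were called (5.2%), against 8.04% of genes. A requirement of groups that do not overlap left 1008 and could not lower the count, as 0 called genes overlapped. The count was 399 (231 higher, 168 lower) without a filter on dim probes, of 21150 genes. It was 438 (244 and 194) with weights by group, 19 (10 and 9) with only these 2 groups in the fit, and 22 (14 and 8) with a 2-fold minimum. Leaving out 1 array gave 211 to 1534 called genes, 125 to 657 higher and 86 to 877 lower. The replicate numbers pair no animals in the labels and only 2 pairs exist. Deviations of same-numbered arrays correlated at 0.23, and with the replicate block 842 genes were called (444 higher, 398 lower), 741 of them shared. The named genes counted next include many that were not called in the main fit and had no call to lose. With only these 2 groups, the named genes still called were Foxp3, Flicr, Ccr10, Cox6a2, Dgat2, Klk1b5, Klk1b26 and Upb1. Of 212 named genes, 115 lost their call with only these 2 groups, 113 with a 2-fold minimum, 65 without a filter, 55 with weights by group, 92 without WT Treg replicate 2 and 74 without WT Treg replicate 1. Leaving out Foxp3-KO preTreg replicate 1 gained 31 calls and lost 19, and replicate 2 gained 18 and lost 32. The one reversal was Sparc, at 0.14 with the mean of its probes (adjusted p = 0.545), against -0.35. The causes were not tested. Signal near background limits the folds given as bounds.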

Other observations

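A set of 7 genes stood furthest above the other 6 arrays in both Foxp3-KO preTreg arrays, chosen after their values were seen. Olfr1305, an olfactory receptor gene, was at -2.24 and -2.07 in Foxp3-KO preTreg, against -6.06 and -5.80 in WT Treg (at least 4.52-fold higher, adjusted p = 0.000547). Olfr1090 was at -3.15 and -2.84, against -6.08 and -6.13 in WT Treg (at least 2.53-fold, adjusted p = 0.000816). The others were 2310065F04Rik, Lipm, A2m, Sftpa1 and Kcnma1, and none of the 7 was well above background on a WT Treg array. Over all tested genes, both Foxp3-KO preTreg arrays lay above the other 6 arrays for 501 (4%) and below them for 939 (7.49%).

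Markers of B cells and myeloid cells were also uneven. Ms4a1, the CD20 gene, was at 1.63 in Foxp3-KO preTreg replicate 1 and -2.45 in replicate 2, against -2.62 and -4.22 in WT Treg, where 1 of the 2 arrays was well above background. The macrophage gene C1qc was at 2.55 and -0.81 in Foxp3-KO preTreg, against 1.31 and -0.94 in WT Treg, and the groups overlapped. Of 27 tested myeloid and dendritic cell markers 1 was called, Mpeg1 (2.22 ± 0.48, adjusted p = 0.0493), 12 were at an unadjusted p under 0.05, all higher, and of 12 B cell markers 0 by limma, with 3 at an unadjusted p under 0.05. The myeloid count of higher genes was 8 without WT Treg replicate 1, 0 without WT Treg replicate 2, and 0 and 2 without Foxp3-KO preTreg replicate 1 and replicate 2. Summed B cell marker signal was 28.6 and 9.91 in Foxp3-KO preTreg, against 12.8 and 9.62 in WT Treg. Summed myeloid signal was 759 and 572, against 584 and 501. A large part of each myeloid sum was Siglech, at log2 8.27 and 8.20 in Foxp3-KO preTreg, against 8.28 and 8.38 in WT Treg. The sums therefore understate how far the other myeloid markers differed.

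The 10 genes with the largest gap in each direction between the Foxp3-KO preTreg arrays, among genes above background on all 4 arrays compared, are given as a description. Higher in replicate 1 were Ifng, Ifitm1, Il1rl1, Ccl4, Ccl5, Klrb1a, Tmem37, Abcc3, Gzma and Apoc1. Higher in replicate 2 were Rag1, Slc3a1, Azin2, Vill, Mgat5, Olfr18, Dynlt1a, Cib3, BB557941 and Anp32a. Gzma, a granzyme, was at 5.10 and 1.66 in Foxp3-KO preTreg, against 0.50 and -0.50 in WT Treg.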
